A study of Danio rerio with 12 samples.

Results

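Some stretches of open chromatin were called in 3 of 4 sorted cell fractions of the zebrafish embryo and not in the fraction positive for sele:GFP alone, and these are described here. A region belonged to the set when a double positive peak on chromosomes 1 to 25 overlapped, by 1 bp or more, a peak of the mCherry only list and a peak of the double negative list, and no peak of the GFP only list. The rule found 6681 of 90687 double positive peaks, which is 7.37% of them (Wilson 95% interval 7.20 to 7.54), and 10.6% (10.4 to 10.9) of the 62983 that lay in both other lists. Keeping only double positive peaks with a deposited −log10 q of 5 or more left 4365, and asking for summits 7 or more times the genome-wide background in the 3 lists left 649. Because the calls of all 4 lists chose the regions, their summit signal and the missing call are a description, and no test was made on them. Intervals on shares (Wilson) and on reads (exact Poisson) are at 95% and cover counting error only, since reads copied by PCR are not independent molecules.

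ATAC-seq reads open chromatin through the Tn5 transposase, which inserts sequencing adapters where DNA is not wrapped tightly in nucleosomes. Promoters and enhancers in use are usually open, and many promoters are open in most cell types whereas enhancers tend to be open in few. The product of kdrl is a receptor through which endothelium senses vascular growth signals, and the gene is a standard marker of zebrafish vascular endothelium. The gene sele encodes E-selectin, a cell surface adhesion molecule by which endothelium holds passing blood cells.

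The embryos were wild-type apart from the kdrl:mCherry and sele:GFP transgenes, which every fraction carried, and were untreated and 72 hours old after fertilisation. Embryos were screened for both reporters, and about 12000 to 50000 sorted cells went into a library; how many embryos made up a sample is not stated. Whole embryos were dissociated and sorted into cells with both reporters (double positive), with mCherry alone (mCherry only), with GFP alone (GFP only) and with neither (double negative), 3 samples of each. The reporters stand for promoter activity, which cells make up the GFP only gate is not stated, and each fraction is a mixture of cells from the whole body. In such mixtures, fewer cells with an open region and less opening in each cell cannot be told apart. The labels name 1 peak list for all 3 samples of a group, so no value here has a replicate check, and the depth of single samples is unknown. Gene positions in danRer7, the build of the files, were not used here, so regions carry coordinates and no gene names, and the fractions were not checked against marker genes.

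In each of the 3 lists that held them, the regions were lower than peaks of all 4 lists. Height was taken as reads at the summit over the lowest expected background in that list, which was 3.63 reads in double positive, 4.46 in mCherry only and 4.47 in double negative (4.26 in GFP only). Median height was 5.78 in double positive (quartiles 4.41 and 8.54), 6.06 in mCherry only (4.49 and 8.30) and 5.60 in double negative (4.26 and 7.84). In reads, the medians were 21, 27 and 25. Over all peaks of those lists the medians were 26, 28 and 26 reads, so the set was near the list median in mCherry only and double negative. The 56302 double positive peaks present in all 4 lists had median heights of 8.81, 11.0 and 9.85 in the same order.

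**Figure D1:**
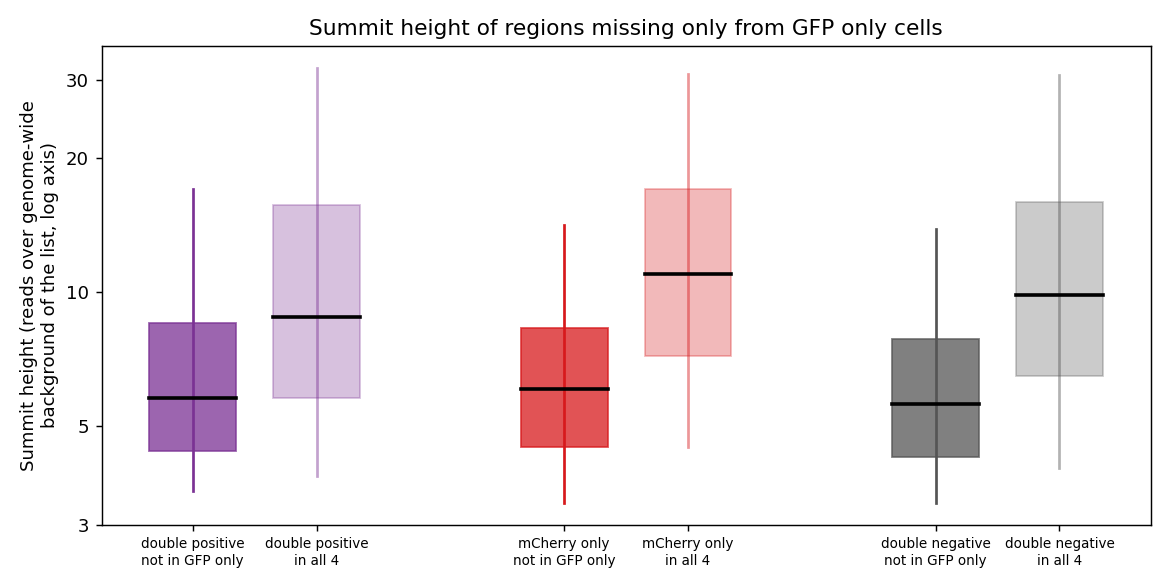
Summit height (reads over the genome-wide background of the list, log axis) in double positive, mCherry only and double negative, for regions missing only from GFP only (dark) and for peaks in all 4 lists (pale). Black lines are medians, boxes span the quartiles and thin lines the 5th to 95th percentile; the dark medians of 5.78, 6.06 and 5.60 lie below the pale ones of 8.81, 11.0 and 9.85.

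A GFP only call was missing more often at low regions than at tall ones. When a region was taken by the lowest of its 3 heights, 28.6% (27.6 to 29.7) of the 7238 regions between 3 and 4 had no GFP only peak. That share was 12.8% between 5 and 6 and 3.73% (3.29 to 4.23) between 8 and 10. Above a lowest height of 10 few regions were missing: 137 of 8396 between 10 and 15, 14 of 4180 between 15 and 20, 6 of 3803 between 20 and 30, and 1 of 2148 at 30 or more. Taken by double positive height alone the share fell more slowly and was still 5.05% (4.53 to 5.64) between 15 and 20. At that height it was 2.31% (2.00 to 2.65) when taken in mCherry only and 2.36% (2.03 to 2.74) in double negative.

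**Figure D2:**
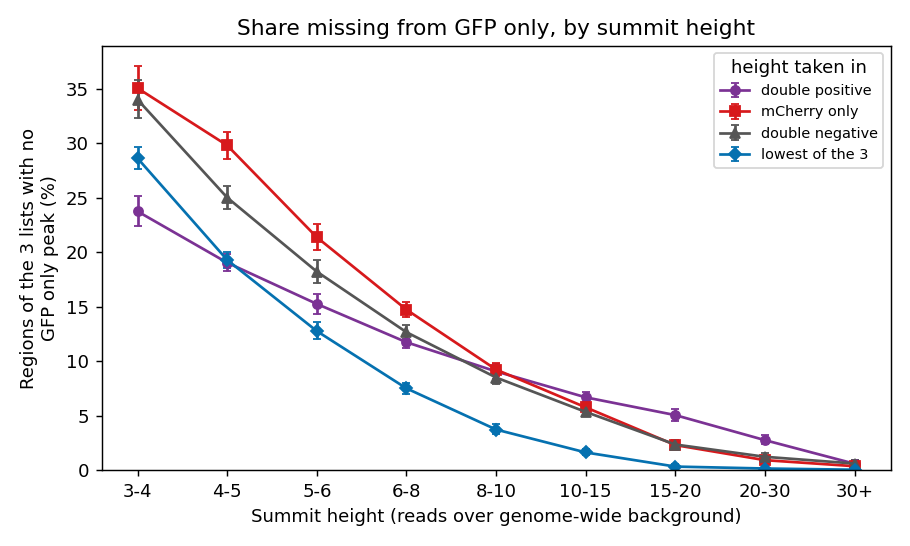
Share of the regions of the 3 lists that had no GFP only peak (%), by summit height (reads over genome-wide background), with the height taken in each list or as the lowest of the 3. Heights under 3 are not drawn, which by lowest height leaves out 338 of the 62983 regions. Bars are Wilson 95% intervals; taken by the lowest height, the share goes from 28.6% between 3 and 4 to 1.63% between 10 and 15.

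An absent call sets no value of 0 in GFP only cells. The lowest summit called there at the genome-wide background held 11 reads, a height of 2.58, and what the GFP only sample held below that is unknown. For 1852 of the regions (27.7%) the local background in the 3 other lists was less than 5% above the genome-wide level. All 1852 stood at or above 2.58 in each of the 3 lists. The lowest heights called there at the genome-wide background were 2.75, 2.47 and 2.46, so being called nearly fixed this. Of the 1852, 903 (48.8%) stood at least 1.5 times as high as 2.58 in each list, 203 at least 2 times and 12 at least 3 times. Shares for other regions on such background are not given here, so these counts only describe the set. The local background in GFP only, on which the reads needed for a call depend, is listed for called peaks and so is unknown here.

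Within a region the lists were close in the median and wide in spread. The mCherry only height was 0.982 of the double positive height (quartiles 0.767 and 1.25), against 1.11 (0.937 and 1.37) in peaks of all 4 lists. The double negative height was 0.964 of the double positive one (0.668 and 1.38), against 1.04 (0.813 and 1.40). With lists of equal length, which drops the weakest peaks of all but double positive, the 2 ratios turned to 1.15 and 1.32, so their direction depends on list length. The double negative height was 2 times the double positive one or more in 734 of the 6681 regions, while 11.3% of all double positive peaks with a double negative partner passed that mark. In the other direction, double positive was at least 2 times double negative in 969 regions (14.5%), against 7.52%. Against mCherry only, double positive was at least 2 times as high in 317 regions (4.74%, against 2.77% of all double positive peaks with a partner there), and mCherry only was so in 303 (4.54%, against 5.8%). Between the remaining pair, mCherry only was at least 2 times double negative in 798 (11.9%, against 8.45% of the regions of the 3 lists) and the reverse held in 551 (8.25%, against 4.86%).

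Sorted by which lists led, 4375 regions (65.5%) had their 3 heights within 2 times of each other, against 74.3% of all regions of the 3 lists. Both mCherry-positive lists stood at least 2 times above double negative in 467 (6.99%, against 4.95%), and double negative stood that far above both in 407 (6.09%, against 4.14%). Double positive led both others by 2 times in 254 (3.80%, against 0.986%), and mCherry only did in 143 (2.14%, against 1.17%). These groups are not exclusive: a region led by 1 mCherry-positive list can also count under both. The regions were also lower than the background, and the part of counting error in these shares was not tested.

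Among the tall regions as first defined, those high in both mCherry-positive fractions held a larger share than in all tall regions of the 3 lists. That share depended on the settings, and regions with 3 similar heights were more numerous. The limit, a geometric mean, lets a region low in 1 list pass through the lists where it is high. Of the 644 regions that passed, 158 stood at 10 or more in every list. Heights were not matched between the set and the background, and the part of the limit in the shares below was not tested. A geometric mean height of 10 or more over the 3 lists was reached by 644 regions (9.64%), against 47.8% of peaks in all 4 lists. In 155 of the 644 (24.1%, 20.9 to 27.5) both double positive and mCherry only stood at least 2 times as high as double negative; 7.1% of all regions of the 3 lists at that height did, and 6.70% of those in all 4 lists. The reverse, double negative at least 2 times both, held for 22 (3.42%, 2.27 to 5.12), against 2.07%. That share was 5.50% with lists of equal length, 1.15% with a reciprocal overlap of 50%, 1.33% with no GFP only peak within 500 bp or with none touching a partner, and 1.14% when counted in double negative, so its place against the background is not settled. The 3 heights lay within 2 times of each other in 279 (43.3%), against 78.2%. Double positive led both others by 2 times or more in 53 (8.23%), against 0.809%, and mCherry only did in 7 (1.09%), against 0.461%. In 6 of those 7 an mCherry only or double negative partner overlapped a GFP only peak. Median heights of the 53 were 23.4 in double positive, 10.5 in mCherry only and 6.05 in double negative, so the double positive height helped them past the limit. Neither the 53 nor the 7 were counted under other settings. These groups are not exclusive, and some of the 53 are also among the 155. With all lists shortened to the length of the double positive one, the share led by both mCherry-positive lists was 10.3%, and among regions at 7 or more in every one of the 3 it was 3.99%. Both settings remove regions with a weak double negative peak, and the part of this in the lower shares was not tested. Local background was 2 or more times the genome-wide level in 98 of the 155 regions (63.2%), against 458 of all 644 (71.1%). Of the 186 tall regions where it was under 2, 57 (30.6%) were led by both mCherry-positive lists. Shares over all regions of the 3 lists were not taken under these other settings. Whether the share led by both mCherry-positive lists exceeds the background there is not settled.

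**Figure D3:**
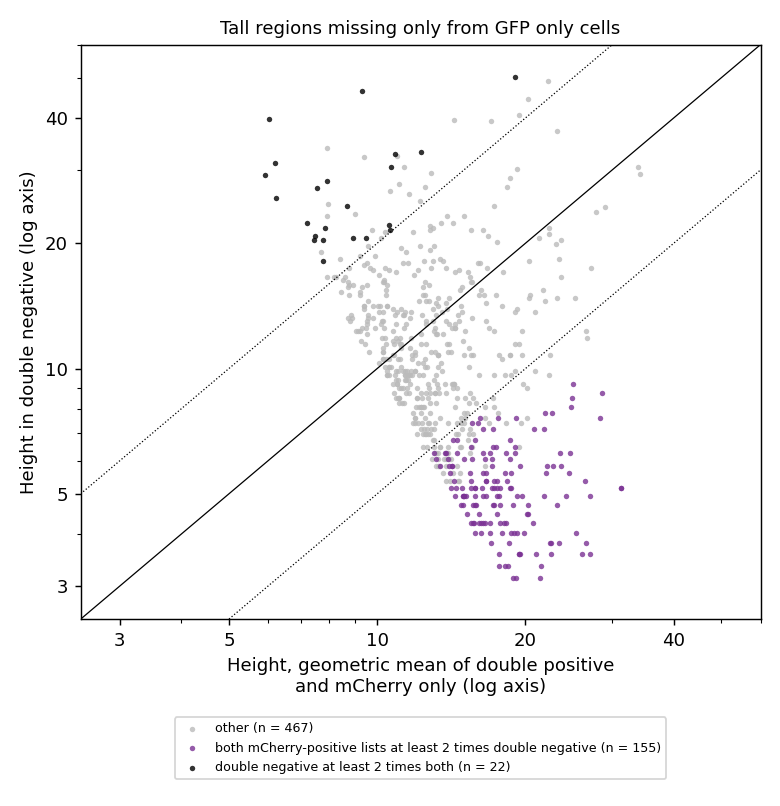
Height in double negative against the geometric mean of the double positive and mCherry only heights (both in reads over genome-wide background, log axes) for the 644 regions with a geometric mean height of 10 or more over the 3 lists, 1 point each. The solid line marks equal heights and the dotted lines a 2 times difference; 155 regions (purple) stand at least 2 times higher in both mCherry-positive lists and 22 (black) at least 2 times higher in double negative, and the empty lower left corner is set by the height limit.

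The 155 regions led by both mCherry-positive lists were broad in those lists, narrow in double negative, and mostly clear of GFP only peaks. Their median heights were 20.9 in double positive, 14.8 in mCherry only and 5.15 in double negative, and their median widths 557, 535 and 292 bp. A GFP only peak lay within 500 bp of 15 of them (9.68%, against 29.97% of all 644), and 2 had an mCherry only or double negative partner that overlapped one. The 155 were picked on their heights and widths were not compared at like height, so the choice may shape the width contrast.

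Among the 644 tall regions, the lowest ratio of double negative to double positive height was found on chromosome 11 from 6082780 to 6083872. There were 143 reads in double positive (exact Poisson 95% interval 120 to 168), 77 in mCherry only (60.8 to 96.2) and 16 in double negative (9.15 to 25.98). The nearest GFP only peak was 7074 bp away. Heights were 39.4, 17.3 and 3.58, so that mCherry only lay between the others.

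Next came chromosome 6 from 52920199 to 52920709, where the reads were 123 (102 to 147), 96 (77.8 to 117) and 16 in the same order. On chromosome 20, from 19082523 to 19083507, there were 102 reads (83.2 to 124), 58 (44.0 to 74.98) and 14 (7.65 to 23.5). On chromosome 14, from 49639059 to 49640021, there were 106 reads (86.8 to 128), 52 (38.8 to 68.2) and 15 (8.40 to 24.7). In each of these the double negative interval lay below both others, and on the height scale double positive stood 1.57 to 2.503 times above mCherry only.

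The largest double positive fold belonged to this group too, on chromosome 13 from 47351621 to 47352177. There were 99 reads (80.5 to 120), 58 (44.0 to 74.98) and 14 (7.65 to 23.5) in double positive, mCherry only and double negative. The deposited folds, which compare the summit with local background, were 17.0, 10.1 and 2.74. A GFP only peak of 19 reads stood 987 bp away.

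The 10 regions of largest double positive fold lay on 7 chromosomes, with folds of 13.3 to 17.0 there, 5.68 to 14.5 in mCherry only and 2.74 to 8.31 in double negative. All 10 were ordered double positive, mCherry only, double negative by height, and 9 stood at least 2 times higher in double positive than in double negative. They were picked on the double positive value, which favours that order. On chromosome 7, from 20242704 to 20243139, the reads were 69 (53.7 to 87.3) in double positive, 78 (61.7 to 97.4) in mCherry only and 19 (11.4 to 29.7) in double negative. There the heights of the mCherry-positive lists were close, at 19.0 and 17.5, and no GFP only peak lay within 27973 bp. On chromosome 14, from 6557699 to 6558211, the reads were 84 (67.0 to 104), 30 (20.2 to 42.8) and 24 (15.4 to 35.7), so that double positive stood apart from both others, at heights of 23.1, 6.73 and 5.38.

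Among the 644 tall regions, the 5 with the lowest ratio of mCherry only to double positive height had ratios of 0.284 to 0.369. The first, on chromosome 13 from 34022873 to 34023498, had 106 reads in double positive (86.8 to 128), 37 in mCherry only (26.1 to 51.0) and 59 in double negative (44.9 to 76.1). Here double negative came between the mCherry-positive lists. In 4 of the 5 such regions mCherry only was the lowest of the 3, and on chromosome 5 from 37414818 to 37415321 double negative was, with 106, 48 and 19 reads.

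Most of the 22 tall regions in which double negative led lay beside GFP only peaks. Of the 22, 16 had a GFP only peak within 500 bp, against 193 (29.97%) of all 644 tall regions. In 15 a partner peak of mCherry only or double negative overlapped one, against 117 (18.2%) of the 644. Their median widths were 277 bp in double positive, 346 in mCherry only and 1046.5 in double negative. The highest ratio of double negative to double positive height, 9.45, was on chromosome 12 from 20199174 to 20199373, where 13 reads in double positive (6.92 to 22.2) stood against 78 in mCherry only (61.7 to 97.4) and 151 in double negative (128 to 177). A GFP only peak of 46 reads began 40 bp away. On chromosome 15, from 19505663 to 19505888, the reads were 18 (10.7 to 28.5), 108 (88.6 to 130) and 145 (122 to 171), and a GFP only peak of 94 reads lay 231 bp away. In the 5 regions of highest ratio the double positive peak was 200 to 307 bp wide and overlapped a double negative peak of 144 to 178 reads. The rule looked for GFP only peaks under the double positive peak alone.

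The 5 highest ratios of mCherry only to double positive among the tall regions were 4.89 to 5.10, and 3 of those regions (on chromosomes 12, 15 and 17) were also among the 5 of highest double negative ratio. On chromosome 1, from 51486735 to 51487142, there were 28 reads in double positive (18.6 to 40.5), 168 in mCherry only (144 to 195) and 176 in double negative (151 to 204), with a GFP only peak of 117 reads 172 bp away. All 5 lay within 341 bp of a GFP only peak.

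The set holds few regions that were tall in all 3 lists, and most of those stood on raised local background. A height of 10 or more in every one of the 3 was found in 158 regions (2.36%, 2.03 to 2.76), against 32.6% of peaks in all 4 lists. In 142 of the 158 (89.9%, 84.2 to 93.7) the expected local background was 2 or more times the genome-wide one in at least 1 list, against 61.2% of peaks in all 4 lists at that height. All 21 regions at 15 or more were of this kind (84.5 to 100%), against 74.1% of peaks in all 4 lists. So were the 7 at 20 or more, but their interval (64.6 to 100%) holds the 85.2% of peaks in all 4 lists. The 10 regions with the largest lowest height had 79 to 135 reads in double positive, 80 to 141 in mCherry only and 82 to 136 in double negative. Their double positive folds over local background were only 1.57 to 5.81.

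The first of them, on chromosome 2 from 14496358 to 14496827, had 132, 141 and 136 reads and folds of 1.60, 1.74 and 1.62. Its local background was 22.6 times the genome-wide one in double positive, and a GFP only peak of 146 reads stood 888 bp away. On chromosome 1, from 53503916 to 53504340, the folds were higher, at 5.81, 9.07 and 9.07, with 79, 102 and 97 reads, but a GFP only peak of 52 reads lay 119 bp away. Whether the raised background has a part in the missing call was not tested.

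Setting these aside left 14 regions, on 12 chromosomes, that were 10 or more high in all 3 lists, on local background under 2 in each, with no GFP only peak within 500 bp and none touching a partner. This selection was made after the values were seen. Each had its 3 heights within 2 times of each other, which the limit of 10 in every list favours. Of all regions of the 3 lists with a geometric mean height of 10 or more, a looser limit, 78.2% did. Reads ranged from 37 to 105 in double positive, 45 to 98 in mCherry only and 48 to 80 in double negative, and the gap to GFP only from 1844 to 13092 bp.

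On chromosome 12, from 45369618 to 45370210, there were 105 reads in double positive (85.9 to 127), 98 in mCherry only (79.6 to 119) and 66 in double negative (51.0 to 84.0), at heights of 28.9, 22.0 and 14.8. On chromosome 17, from 14850597 to 14851047, there were 54 (40.6 to 70.5), 57 (43.2 to 73.9) and 64 reads (49.3 to 81.7), at heights of 14.9, 12.8 and 14.3, and no GFP only peak lay within 13092 bp. On chromosome 7, from 57016992 to 57017545, there were 55 (41.4 to 71.6), 63 (48.4 to 80.6) and 58 reads (44.0 to 74.98), with 10593 bp to the nearest GFP only peak. In the latter pair the 3 read intervals overlap throughout, so the fractions holding the region could not be ranked.

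On chromosome 11, from 32985552 to 32986056, double positive had 81 reads (64.3 to 101) against 57 (43.2 to 73.9) and 56 (42.3 to 72.7). On chromosome 4, from 21447044 to 21447362, double negative was highest, with 43 reads (31.1 to 57.9), 53 (39.7 to 69.3) and 75 (59.0 to 94.0). The heights there were 11.8, 11.9 and 16.8. On chromosome 2, from 50641917 to 50642336, there were 56 reads (42.3 to 72.7), 71 (55.5 to 89.6) and 48 (35.4 to 63.6). Heights were 15.4, 15.9 and 10.8, so double positive and mCherry only were close.

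One further region tall in all 3 lists lay farther from GFP only than any of these. On chromosome 22, from 15425674 to 15426431, there were 56 reads in double positive (42.3 to 72.7), 60 in mCherry only (45.8 to 77.2) and 56 in double negative (42.3 to 72.7), 18767 bp from a GFP only peak. Its local background in double positive was 2.03 times the genome-wide one.

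The regions were narrower than peaks of all 4 lists. Median width was 309 bp in double positive (quartiles 237 and 425), 364 bp in mCherry only and 355 bp in double negative, against 421, 514 and 510 bp in peaks of all 4 lists. Over all peaks of those lists the medians were 353, 366 and 379 bp, so the set was close to the list median in mCherry only. The least width a list allows, 200 bp, was found in 515 double positive peaks of the set (7.71%), against 2.49% of those in all 4 lists, and 21 reached 1000 bp. Together they covered 2346 kb, which is 6.18% of the length of the double positive list.

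At like double positive height the width in double positive differed less than the width in the other lists. Between heights of 10 and 15 the medians were 443 bp for the set and 478 bp for peaks of all 4 lists. In double negative the same regions had 335 bp against 516.5 bp, and in mCherry only 413 bp against 534 bp. Heights in double negative and mCherry only were not matched here. The 5 widest, of 1147 to 1291 bp, were all highest in double positive and lowest in double negative. They were picked on double positive width, which rose with height in that list, and this favours double positive being highest. On chromosome 6 the widest of them (149720 to 151010) had 86 reads (68.8 to 106), 59 (44.9 to 76.1) and 15 (8.40 to 24.7), and on chromosome 19 from 35090746 to 35092000 there were 98 (79.6 to 119), 67 (51.9 to 85.1) and 34 reads (23.5 to 47.5).

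The summits of the 3 lists nearly coincided in most regions. The mCherry only summit lay a median of 39 bp from the double positive one (quartiles 14 and 92), and the double negative summit 53 bp (19 and 130). In peaks of all 4 lists these distances were 22 and 26 bp. More than 1 mCherry only peak met the double positive peak in 60 regions and more than 1 double negative peak in 59. There were 40 regions that shared their mCherry only partner with another region of the set and 56 that shared a double negative one, and these are not separate sites in those lists.

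The median gap from a region to the nearest GFP only peak was 2823 bp (quartiles 1236 and 5849), and 790 regions (11.8%) were more than 10 kb away. The median depended on the settings: it was 1137 bp with a reciprocal overlap of 50%, 1446 bp at 7 or more in all 3 lists, and 4357.5 bp with lists of equal length. The 50% rule was applied to GFP only peaks too. Regions that overlapped one by less than that were then counted as missing, with no gap, so that median describes a different set. A GFP only peak lay within 500 bp of 1014 regions (15.2%, 14.3 to 16.1) and within 200 bp of 557 (8.34%, 7.70 to 9.02). The number of regions per 100 bp of gap was 213 up to 100 bp, 341 between 100 and 200 bp and 153 between 200 and 500 bp. It was 88.8 between 500 and 1000 bp, 103 between 1000 and 2000 bp and 71.2 between 2000 and 5000 bp, so that it peaked at 100 to 200 bp and did not fall evenly after that. Regions with a GFP only peak within 500 bp had a median double positive width of 265 bp, against 319 bp for the others. Their double positive height was the same in the median, 5.78, and their double negative height was 6.94 against 5.38.

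**Figure D4:**
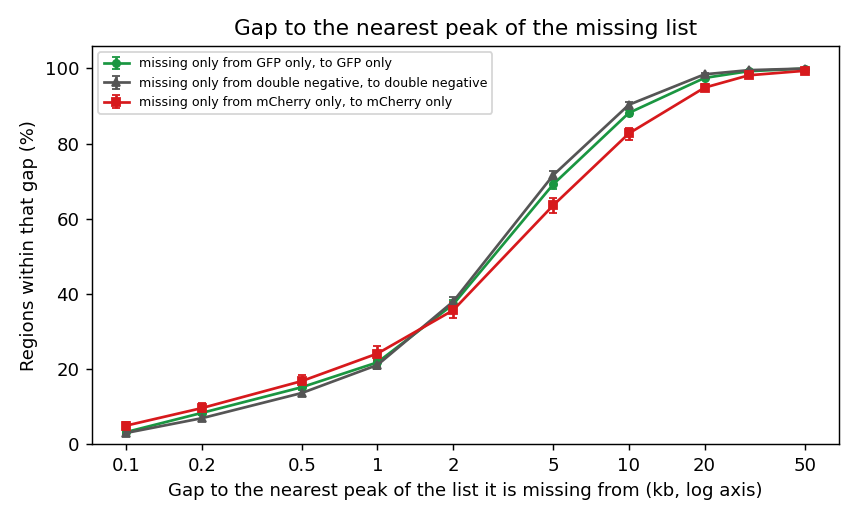
Share of regions (%) with a peak of the list they are missing from within a given gap (kb, log axis; edge to edge), for regions missing only from GFP only, only from double negative and only from mCherry only. Bars are Wilson 95% intervals; within 0.5 kb the shares are 15.2%, 13.6% and 16.8%.

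The label of the set holds less firmly where a partner reaches into a GFP only peak. In 528 regions (7.90%, 7.28 to 8.57) the mCherry only or the double negative partner overlapped a GFP only peak although the double positive peak did not. Their median width was 256 bp in double positive, 619 bp in mCherry only and 756 bp in double negative, and the median gap from the double positive peak to GFP only was 125 bp.

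In 15 regions the gap to a GFP only peak was 10 bp or less, and 14 peaks of all 4 lists overlapped one by 10 bp or less. Their median double positive heights were 4.13 and 4.27. Within 100 bp of the limit there were 216 regions inside and 401 peaks outside, with medians of 5.23 and 4.41. Just inside, on chromosome 11 from 22069187 to 22069386, a peak with 16 reads in double positive, 14 in mCherry only and 23 in double negative touched a GFP only peak of 14 reads without sharing a base. Just outside, on chromosome 6 from 34129932 to 34130283, one with 16, 22 and 19 reads overlapped a GFP only peak of 22 reads by 1 bp.

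At the other end, 48 regions lay more than 30 kb from any GFP only peak and 2 more than 50 kb. These were on chromosome 3 from 5540676 to 5541023, with 13 reads in double positive (6.92 to 22.2), 14 in mCherry only (7.65 to 23.5) and 18 in double negative (10.7 to 28.5), and on chromosome 1 from 31586671 to 31586965, with 25, 29 and 33 reads. The former was 60517 bp from a GFP only peak, and another region of the set, on chromosome 3 from 5486725 to 5487039, was 47971 bp from one. Both regions on chromosome 3 were below the median height of the set in all 3 lists. The one on chromosome 1, at heights of 6.88, 6.50 and 7.39, was above it. Its local background was 2.05 to 2.43 times the genome-wide one. None of these regions differed between the lists beyond its read intervals.

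Most regions had no other region of the set within 20 kb, though the set made up more of their neighbours than of the list. Neighbouring regions of the set were joined into chains wherever 20 kb or less lay between their summits. In this way 1697 regions (25.4%) fell in 772 chains of 2 or more, of which 103 held 3 regions, 18 held 4 and 4 held 5 or more. The median distance to the nearest other region of the set was 55.1 kb. Of the neighbours of a region in the double positive list, 9.63% belonged to the set, which made up 7.37% of the list, and 59.2% were peaks of all 4 lists, which made up 62.1%.

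The longest chain by number of regions, on chromosome 18 from 17013302 to 17054831, held 7. Its 41.5 kb held 12 peaks of double positive, 9 of mCherry only, 11 of double negative and 2 of GFP only. Chain length is counted in regions throughout, and in kb a chain on chromosome 8 was longer, at 44.7. A low GFP only count follows in part from how chains were built, and the other 3 longest chains held 4, 4 and 5 GFP only peaks. On chromosome 18, the regions from 17053618 to 17054462 and from 17054581 to 17054831 shared their double negative partner, of 31 reads. They are not separate sites in that list. The 7 regions of this chain had 17 to 59 reads in double positive, 27 to 45 in mCherry only and 14 to 37 in double negative. They did not vary alike: from 17013302 to 17013629 the reads were 18, 28 and 37, and from 17032600 to 17033164 they were 48, 33 and 19.

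Chains of 5 lay on chromosomes 4, 7 and 8. That on chromosome 4, from 4539260 to 4566296, held its tallest region from 4546452 to 4546969, with 99 reads in double positive (80.5 to 120), 51 in mCherry only (38.0 to 67.1) and 22 in double negative (13.8 to 33.3). Of its 5 regions, 4 were highest in double positive. That on chromosome 7, from 34643327 to 34683314, ended in a region with 64, 67 and 69 reads on a local background 6.49 times the genome-wide one in double positive. That on chromosome 8, from 10022687 to 10067404, began with a region of 15, 29 and 61 reads and ended with one of 55, 54 and 22.

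**Figure D5:**
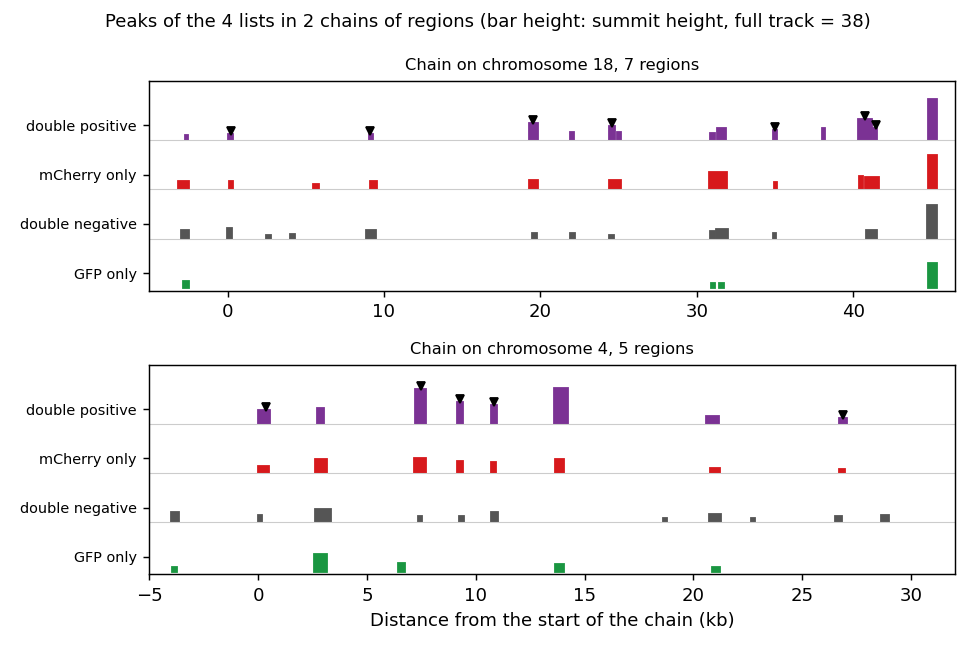
Peaks of the 4 lists across the chains on chromosome 18 (7 regions) and chromosome 4 (5 regions), by distance from the start of the chain (kb). Bar width is the peak's extent and bar height its summit height, on 1 scale for all tracks; black triangles mark the regions missing only from GFP only, at which the GFP only track is empty.

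The share of regions of the 3 lists that were missing from GFP only was also taken by chromosome and by window. By chromosome it ran from 9.20% (7.94 to 10.6) on chromosome 25 to 11.9% (10.9 to 13.0) on chromosome 7. In 275 windows of 5 Mb with at least 100 regions of the 3 lists, the median was 10.4%, the lowest 4.4% (2.47 to 7.71), on chromosome 3 from 5 to 10 Mb, and the highest 18.9% (14.2 to 24.8), on chromosome 7 from 10 to 15 Mb. These 2 windows are the extremes of many. Windows hold fewer regions than chromosomes, so counting error spreads their shares more, and spread beyond that was not tested. On chromosome 4 beyond 25 Mb it was 7.97% (6.61 to 9.58), or 102 of 1280, below the 10.6% of all chromosomes. Within 1 Mb of the first or last peak of a chromosome it was 9.85% (8.87 to 10.9).

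Set beside regions missing from just 1 other fraction, the set held 6681 regions, with 5156 missing only from double negative and 2100 missing only from mCherry only. Regions missing only from double positive, the shortest list, numbered 21115 when counted in mCherry only. Median double positive height was 5.78, 6.33 and 4.41 in that order, and median width 309, 321 and 262 bp. Chains of 2 or more took in 25.4%, 23.7% and 7.57% of the regions. The median gap to the list that lacked the region was 2823, 2666.5 and 3094 bp. These sets differ in size and in the length of the list that lacks them, and no replicate lists were available to test their differences.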

How the data were processed

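ATAC-seq peaks of 4 sorted fractions were analysed, 1 list for each group of 3 samples, with groups taken from the sample titles. The submitters' processing notes name danRer7 as build, with MACS2 2.1.0 and Bowtie2 2.2.1. Not given in the sources used here are caller settings, read filters, Tn5 offsets and how samples were pooled. The authors deposited, for each peak, a display score, a fold (linear ratio over local background), −log10 p, −log10 q and a summit offset in bp. The score was not used. Reads at each summit were recovered as the whole number that gives both the deposited fold and −log10 p under a Poisson tail with a pseudocount of 1 (largest misfit 0.000382, next best at least 0.00808). This pileup model is inferred from the values; it and the overlap step were tested on simulated data. A partner is the tallest overlapping peak of a list. Local background is the expected reads at the summit over the list's lowest. No p-value was computed, since each group is 1 list. Regions were named by fixed rules: the 10 of largest double positive fold, the 10 of largest lowest height, members of the 3 longest chains, the 5 extremes of each height ratio among regions of geometric mean height 10 or more, the 5 tall ones farthest from GFP only, the 5 nearest to it and the 5 widest. The set, these rules and the alternatives were chosen with earlier results of these data known. Limits on local background, the 14 selected regions, a further chain tied in length, the 3 regions farthest from GFP only and 2 alternatives were added after values were seen. Coordinates are 1-based. Peaks off chromosomes 1 to 25 (2 or 3 per list) were left out. Gene tables at hand were of another assembly and were not used. Python 3.11.15, numpy 2.4.6, pandas 2.3.3, scipy 1.17.1 and matplotlib 3.10.9 were used.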

Additional observations from a re-analysis of the deposited data

How the results depend on the processing

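No paired analysis was possible because 1 list stands for all 3 samples of a group, and for the same reason no replicate was left out. The number of regions, 6681, stayed within 1.5 times under 8 of 10 alternatives. It fell to 4365 when the double positive list was kept at −log10 q of 5 or more, and to 649 with height 7 or more in the 3 lists, both shorter by construction. Only totals were compared, not which regions made them up. Reciprocal overlap, the q limit in every list and equal length also let in regions with a deposited GFP only peak. Under these the tall regions numbered 1300, 944 and 982, against 644 as reported. Medians were held unmoved within the 95% binomial interval of the median, which can be narrower than 1 read. With reciprocal overlap of 50%, median heights were 6.61, 6.73 and 6.05 (double positive, mCherry only, double negative), the double negative ratio to double positive 0.915 and the gap to GFP only 1137 bp. That set includes regions that overlap a GFP only peak by less than 50%, entered with no gap. With every list kept at that q, median heights were 7.16, 7.401 and 6.94, the ratio 0.926 and the gap 3623.5 bp. With that threshold in double positive alone, heights were 7.16 and 6.95 in the mCherry-positive lists, and the ratios 0.874 for mCherry only and 0.780 for double negative. With lists of equal length, heights were 6.06, 7.18 and 8.06, the ratios 1.15 and 1.32, both above 1, and the gap 4357.5 bp; equal length removes the weakest peaks of the longer lists. With no GFP only peak within 500 bp, double negative height was 5.38, the ratios 0.965 and 0.934 and the gap 3474 bp. With no partner touching GFP only they were 5.38, 0.967, 0.930 and 3147 bp. Counted in mCherry only, the ratios were 0.956 and 0.938; counted in double negative, the double negative height was 5.38, the ratios 0.966 and 0.915 and the gap 2936 bp. With height 7 or more in the 3 lists, heights were 11.01, 10.5 and 9.85, the ratios 0.933 and 0.918 and the gap 1446 bp. The next 2 were added after the data were seen. With local background under 2, heights were 5.23, 5.61 and 5.38 and the gap 3326 bp. From the deposited folds the ratios were 1.002 and 0.983. The share of tall regions led by both mCherry-positive lists, 24.1%, ranged from 3.99% (height 7 or more in the 3 lists, which removes regions low in double negative) to 31.9% (counted in double negative), and was 10.3% with lists of equal length. No share over all regions of the 3 lists was taken under these settings. For the other changes no cause was tested. The median region held 21 reads in double positive, and what depth limits was not tested.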
